A study of Arabidopsis thaliana with 6 samples.

Results

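The 40 genes described here are the 21 heat shock factor genes of Arabidopsis thaliana, 18 genes for small heat shock proteins and HSP101, out of 32833 genes in the deposited expression table. They were chosen by family membership, with earlier results of these data known. RNA-seq was run on fresh seeds, harvested within a day, of the wild type Columbia-0, or Col-0, and of the mutant asf1a1b, with 3 libraries each. The asf1a1b plants carry mutations in both genes for ASF1, the chaperone that hands histones H3 and H4 to chromatin, and no agent or heat treatment is named for either genotype. The series is about ASF1 and germination, and the libraries allow stored transcripts of the 2 genotypes to be set side by side. The labels name no separate plants or harvests behind the replicates, so the p-values cover no more than the spread among these libraries, which may be technical. The labels also mention cold stratification without saying whether the sequenced seeds received it.

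Heat shock factors are transcription factors that bind the heat shock element, an array of inverted GAA repeats. Class A factors carry an activation domain, while class B factors lack it and mostly act as repressors. Small heat shock proteins are chaperones that need no ATP and hold unfolding proteins in a soluble state until HSP70 and the disaggregase HSP101 refold them. In most tissues these chaperones appear on heating, but in Arabidopsis seeds they also accumulate late in maturation without heat, under HSFA9, a seed factor that acts downstream of the B3 factor ABI3.

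Expression is given in rescaled TPM, the authors' level per transcript length and library size after a rescaling between libraries, so genes can be compared. The libraries held 42771429 to 56017489 recovered reads. As a check of the labels, ASF1A went from 16.7 ± 1.23 to 2.33 ± 0.237 and ASF1B from 2.97 ± 1.21 to 0.256 ± 0.0902 (Col-0, then asf1a1b, SD, n = 3), and no mutant library reached a wild-type value. The seed label was met by the 6 embryo and seed store markers (CRA1, CRU3, OLEO1, OLEO2, EM1 and EM6), whose summed level was 70692 to 108831 in Col-0 and 68829 to 94365 in asf1a1b, highest in replicate 1 of both genotypes. None of the 6 passed the test described below, and 3 had a lower mean in asf1a1b. Single markers moved apart: EM6 was lower in every asf1a1b library (means of 21258 and 13345), and CRU3 ran from 9735 to 34099 within Col-0. The 3 green tissue markers summed to 9.52 to 23.51 in Col-0 and 52.1 to 105 in asf1a1b, and RBCS1A and LHCB1.3, the 2 of them that were tested, were both higher in the mutant. The 3 seed coat markers summed to 1.26 to 2.37 and 4.97 to 7.60, with BAN at 0.124 or less in every library and PRX36 the marker that rose. MUM4, the other of them, had means of 0.799 in Col-0 and 0.712 in asf1a1b. The 3 endosperm markers summed to 6904 to 10324 in Col-0 and 9230 to 11133 in asf1a1b, nearly all of it EPR1, with ZOU at 0.101 or less in every library. The part of these markers in the results below was not tested, and in whole seeds fewer cells of a type and less RNA per cell cannot be told apart.

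Of the 40 genes, 32 averaged 1 or more across the libraries and were tested together with all other such genes (limma on log2 of the value plus 1, Benjamini-Hochberg adjusted p under 0.05). Among these 32, 11 passed, against a background of 30.6% of the 14663 genes tested, so the total number of calls was near the background and is not a result about these families. By direction, 8 of the 32 fell in asf1a1b, where 14.5% of all genes tested fell, and 3 rose, where 16.1% of all genes rose. The values of the 3 Col-0 and the 3 asf1a1b libraries did not overlap for 18 of the 32 genes, against 47.5% of all genes tested. The median log2 fold change was -0.17 over the 32 genes and 0.01 over all genes tested. With the replicate number as a block, 17 of the 32 passed (5 higher, 12 lower), and all 11 calls were among them. With a median-of-ratios scaling the split was 2 higher and 11 lower. The number passing fell to 3 without Col-0 replicate 2, to 5 without Col-0 replicate 3, to 3 without asf1a1b replicate 2 and to 4 without asf1a1b replicate 3, and without a filter on low values it was 7. The count over all genes moved in these fits as well. It was 4494 in the main fit, 5825 with the block and 5055 without the filter. Without Col-0 replicate 2 or 3 it was 2122 or 3279, and without asf1a1b replicate 2 or 3 it was 2346 or 1767.

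The promoters of the genes whose mean fell by more than 2-fold are shown, because they carry the largest decreases in both families. They are the 250 bases before the annotated start, 5′ to 3′ on the gene's strand, from the RefSeq TAIR10.1 reference and not from the mutant. Capitals mark the heat shock element core GAANNTTC (a palindrome), the RY core CATGCA that B3 factors such as ABI3 bind, and the abscisic acid response core ACGTG, each on either strand. The windows are chr5:21943733-21943982 (plus strand) for HSFA9, chr3:23398986-23399235 (plus) for HSFA7B, chr4:12916676-12916925 (plus) for HSP23.6-MITO, chr1:19575867-19576116 (minus) for HSP26.5 and chr4:13819972-13820221 (minus) for HSP21.
HSFA9: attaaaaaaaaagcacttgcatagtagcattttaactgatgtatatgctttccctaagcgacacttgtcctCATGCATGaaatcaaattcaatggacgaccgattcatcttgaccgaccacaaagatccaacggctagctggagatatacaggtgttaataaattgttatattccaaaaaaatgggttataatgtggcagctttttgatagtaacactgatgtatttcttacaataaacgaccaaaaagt
HSFA7B: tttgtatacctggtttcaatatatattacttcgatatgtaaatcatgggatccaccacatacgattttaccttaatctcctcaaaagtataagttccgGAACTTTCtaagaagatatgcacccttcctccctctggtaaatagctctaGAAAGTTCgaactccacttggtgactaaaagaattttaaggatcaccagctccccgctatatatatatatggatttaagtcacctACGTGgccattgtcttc
HSP23.6-MITO: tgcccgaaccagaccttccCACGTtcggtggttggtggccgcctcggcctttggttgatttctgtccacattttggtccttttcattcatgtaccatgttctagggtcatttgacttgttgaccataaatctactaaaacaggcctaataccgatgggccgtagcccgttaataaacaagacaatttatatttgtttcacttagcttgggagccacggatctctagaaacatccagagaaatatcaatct
HSP26.5: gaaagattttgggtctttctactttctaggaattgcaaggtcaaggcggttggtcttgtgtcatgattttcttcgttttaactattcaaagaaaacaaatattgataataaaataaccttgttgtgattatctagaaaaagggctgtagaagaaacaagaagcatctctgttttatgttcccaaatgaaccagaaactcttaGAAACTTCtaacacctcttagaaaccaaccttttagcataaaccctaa
HSP21: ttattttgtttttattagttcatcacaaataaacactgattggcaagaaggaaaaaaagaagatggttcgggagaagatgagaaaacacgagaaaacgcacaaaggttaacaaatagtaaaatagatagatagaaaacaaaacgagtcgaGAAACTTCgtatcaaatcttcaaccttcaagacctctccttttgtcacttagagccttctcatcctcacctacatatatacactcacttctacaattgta

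In the HSFA9 window the capitals are a full RY palindrome, CATGCATG, which contains CATGCA on both strands. It was the only one of the 40 windows with that palindrome, and 0.776% of the 27443 promoters of the annotation held it. The HSFA7B window held GAANNTTC at 152 and 102 bases before the start, the first of them inside a perfect heat shock element of 3 units, and ACGTG once. GAANNTTC also lay at 48 bases before the start of HSP26.5 and at 100 bases before HSP21, while HSP23.6-MITO held ACGTG, on the reverse strand, and neither of the other cores.

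Across the families, GAANNTTC was present in 4 of 21 heat shock factor windows and 4 of 18 small heat shock protein windows, against 9.55% of all promoters. The perfect 3-unit element, which contains that core, was in the windows of HSFA2, HSFA7A, HSFA7B, HSP17.4A-CI and HSP17.6C-CI, and in 0.386% of all promoters. CATGCA was in 3 of 21 and 4 of 18 windows, against 8.43%, and ACGTG in 6 of 21 and 5 of 18, against 22.9%. The 5 small heat shock protein genes that fell included 2 with GAANNTTC, and so did the 10 that were tested and did not pass. These matches describe letters in a short window and say nothing of whether a factor binds there.

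Among the heat shock factors, 15 of 21 were tested: 3 fell (HSFA9, HSFA7B and HSFA5), 2 rose (HSFA2 and HSFB2B) and 10 did not pass. The share passing was 33.3%, near the 30.6% of all genes tested. Of the 5 calls, 2 or 3 were left when replicate 2 or 3 of either genotype was left out. HSFA9 alone made up 53.0% to 58.7% of the summed level of the 21 genes in the Col-0 libraries and 24.1% to 41.2% in asf1a1b. The family sum was 586 ± 44.4 rescaled TPM in the wild type and 388 ± 22.7 in the mutant, and without HSFA9 it was 256 ± 8.14 and 269 ± 22.5 (SD, n = 3). The lower family sum therefore lay in HSFA9, and the remaining 20 genes summed to ranges that overlapped between the genotypes.

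**Figure D1:**
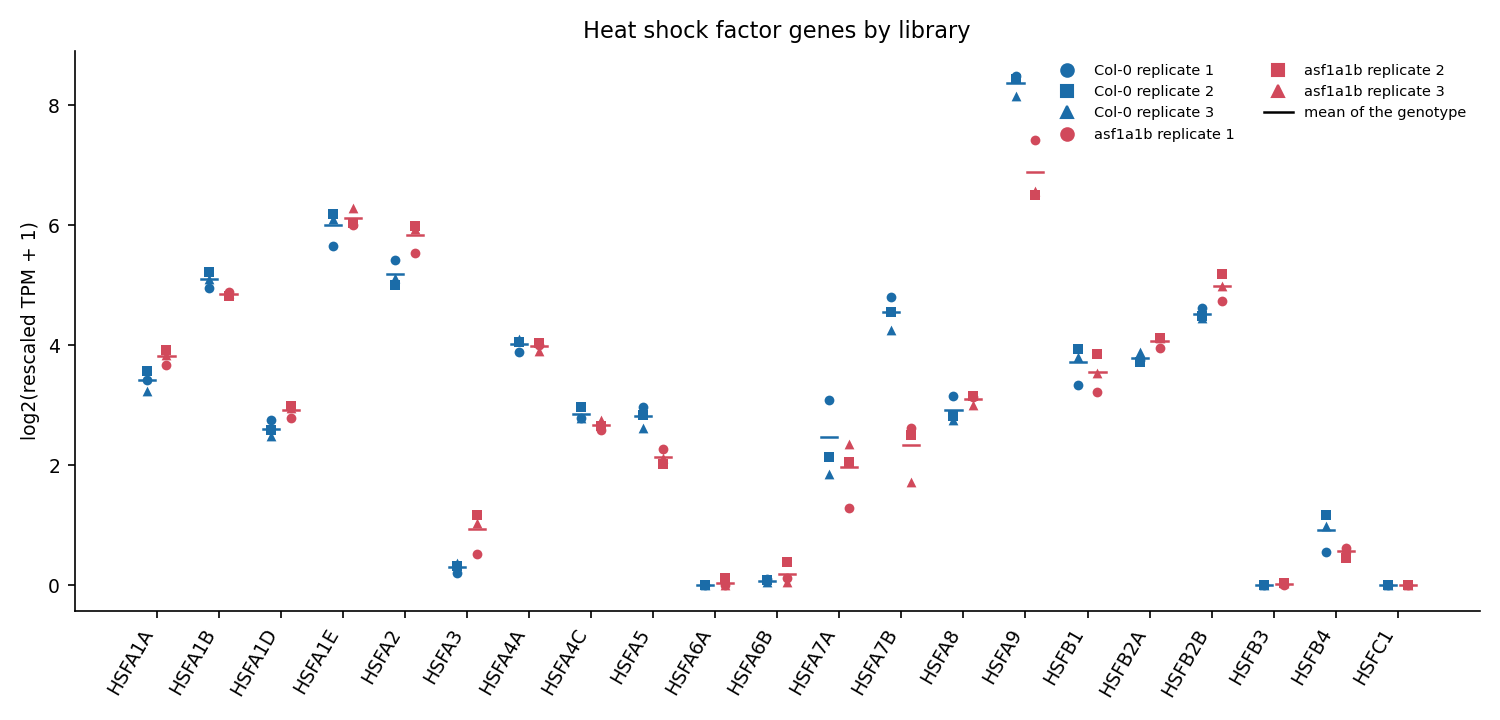
Level of each of the 21 heat shock factor genes, as log2 of rescaled TPM plus 1, in each library. Points are the 3 Col-0 and the 3 asf1a1b libraries, with shapes for replicate numbers. Lines are the mean rescaled TPM of each genotype, drawn as log2 of that mean plus 1. HSFA9 is the highest gene in every library and sits lower in all 3 asf1a1b libraries, and 6 genes lie near the bottom of the axis.

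HSFA9 (AT5G54070, chromosome 5, 21943983 to 21945651, plus strand, 3 exons) is the factor tied to seed maturation. In replicates 1, 2 and 3 its level was 358, 348 and 283 rescaled TPM for Col-0, and for asf1a1b it was 170.5, 90.07 and 94.2 in the same order, which all later lists of libraries follow. All mutant libraries lay below all wild-type ones, and asf1a1b replicate 1 was the highest of the mutant. The mean was 2.79 times lower in asf1a1b, a log2 fold change of -1.53 with an SE of 0.25 (limma, adjusted p = 0.0053), and the gene moved from rank 240 to rank 757 of all genes by level. The call was kept in each of the 6 fits that left out 1 library. A snoRNA gene, AT5G54075, lies on the other strand over 303 bases of HSFA9 and averaged 0.138 in the wild type and 0.123 in the mutant.

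HSFA7B (AT3G63350, chromosome 3, 23399236 to 23400812, plus strand, 2 exons) is a heat-induced class A factor. It showed the largest decrease of the 32 genes tested, from 26.9, 22.4 and 18.0 rescaled TPM in the Col-0 replicates to 5.185, 4.71 and 2.30 in the asf1a1b replicates. The genotypes did not overlap, and replicate 3 was the lowest library in each. The mean was 5.52 times lower, a log2 fold change of -2.25 with an SE of 0.26 (limma, adjusted p = 0.0017), and the call was kept with any library left out. Its nearest relative HSFA7A (AT3G51910), whose coding sequence is 64.2% identical, had 7.55, 3.41 and 2.63 in Col-0 and 1.46, 3.16 and 4.09 in asf1a1b, so its genotypes overlapped and it did not pass (log2 fold change -0.47, adjusted p = 0.369).

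HSFA5 (AT4G13980, chromosome 4, 8076903 to 8079408, minus strand, 3 exons) is known to bind class A4 factors and to repress their activity. Its level was 6.88, 6.13 and 5.17 rescaled TPM for Col-0 and 3.82, 3.06 and 3.345 in asf1a1b, with no overlap. The log2 fold change was -0.68 with an SE of 0.14 (limma, adjusted p = 0.0123). The A4 factors themselves did not pass: HSFA4A (AT4G18880) had means of 15.2 and 14.9 and HSFA4C (AT5G45710) of 6.21 and 5.35. The HSFA5 call was lost without Col-0 replicate 2 or without asf1a1b replicate 2 or 3, at a largest adjusted p of 0.0578.

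HSFA2 (AT2G26150, chromosome 2, 11135624 to 11137792, plus strand, 4 exons), which prolongs the heat response and acquired thermotolerance, went the other way. Levels were 41.9, 31.1 and 33.7 rescaled TPM for Col-0 and 45.5, 62.3 and 60.6 in asf1a1b. The ranges did not overlap, but the highest Col-0 library and the lowest asf1a1b library, both replicate 1, lay close together. The log2 fold change was 0.64 with an SE of 0.17 (limma, adjusted p = 0.0249).

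HSFB2B (AT4G11660, chromosome 4, 7042354 to 7044708, plus strand, 2 exons), a class B repressor, had 23.62, 21.4 and 21.0 in Col-0 and 25.7, 35.5 and 30.7 in asf1a1b. Its log2 fold change was 0.45 with an SE of 0.14 (limma, adjusted p = 0.0435). The calls of HSFA2 and HSFB2B were both lost when replicate 2 or 3 of either genotype was left out, at largest adjusted p of 0.103 and 0.136. The HSFB2B call was also lost when every library was scaled to the same total (0.0845) or by median of ratios (0.0702), without a filter on low values (0.0581) and without the trend in the variance prior (0.0523). HSFB2B shares 308 bases with AT4G11670 on the other strand, which averaged 8.26 in the wild type and 7.05 in the mutant.

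The 4 HSFA1 genes encode the factors that start the heat response. HSFA1E (AT3G02990) was the most abundant of them, at 63.2 ± 11.9 in the wild type and 68.5 ± 7.22 in the mutant (SD, n = 3), the second highest heat shock factor in both genotypes, and its libraries overlapped. HSFA1A (AT4G17750) had 9.74, 11.0 and 8.45 in Col-0 and 11.8, 14.1 and 13.4 in asf1a1b, and its log2 fold change of 0.40 had an adjusted p of 0.0557, which became 0.0385 with the replicate block and 0.0443 without asf1a1b replicate 1. HSFA1B (AT5G16820) and HSFA1D (AT1G32330) had log2 fold changes of -0.23 and 0.30, without overlap between the genotypes and without passing the test.

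Below HSFA9 and HSFA1E, the order of levels in Col-0 ran from HSFA2 at 35.6 ± 5.63 and HSFA1B at 33.3 ± 3.15, whose libraries overlapped, to HSFA7B at 22.4 and HSFB2B at 22.02, which overlapped as well. HSFA4A, HSFB2A (AT5G62020) and HSFB1 (AT4G36990), the latter 2 class B repressors, followed at 15.2, 12.8 and 12.1. Of the genes that did not pass, HSFA8 (AT1G67970) and HSFB1 had overlapping genotypes, while HSFB2A was higher in every asf1a1b library (log2 fold change 0.28, adjusted p = 0.0992).

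The 6 heat shock factors under the test's minimum were read rarely. HSFA3 (AT5G03720), which acts downstream of DREB2A, gave 11, 18 and 23 recovered reads for Col-0 and 29, 116 and 83 for asf1a1b, so every mutant library held more reads than every wild-type library. In rescaled TPM this was 0.147 to 0.293 against 0.443 to 1.25. HSFB4 (AT1G46264), which in roots governs stem cell division, went from 146 reads over the 3 Col-0 libraries to 81 over the 3 asf1a1b libraries, with overlap. HSFA6A (AT5G43840), HSFA6B (AT3G22830) and HSFB3 (AT2G41690) gave 0, 9 and 0 reads over the wild-type libraries and 4, 26 and 2 over the mutant ones. HSFC1 (AT3G24520), the class C factor, had no read in any library, a count that allows up to 3 of the 139670107 reads of Col-0 and 3 of the 151479677 reads of asf1a1b (counting error only). HSFC1 shares 1808 bases with AT3G24518, a noncoding RNA gene on the other strand that averaged 0.097 in the wild type and 0.105 in the mutant. How reads over these bases were assigned is not known, so the limit holds only for reads credited to HSFC1.

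Summed over each family, the small heat shock protein genes were far more abundant than the heat shock factor genes. This did not hold gene by gene: HSFA9 averaged 330 in Col-0, above HSP22.0-ER at 232 and HSP21 at 32.1, for example. Together the 18 genes reached 12051, 12253 and 11213 rescaled TPM for Col-0 and 8880, 7065 and 6541 in asf1a1b, 1.15% to 1.25% and 0.623% to 0.847% of the library total. All 3 mutant sums lay below all wild-type sums, with asf1a1b replicate 1 the highest of the mutant, and the mean was 1.58 times lower. Of the 16 genes tested, 5 fell, 1 rose and 10 did not pass, and the median log2 fold change was -0.39. The share passing was 37.5%, against 30.6% of all genes tested, of which 14.5% fell and 16.1% rose. With the replicate block 11 passed, where 5825 of all 14663 genes did. Without a filter on low values 2 passed, and 1 or 2 did when replicate 2 or 3 of either genotype was left out.

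**Figure D2:**
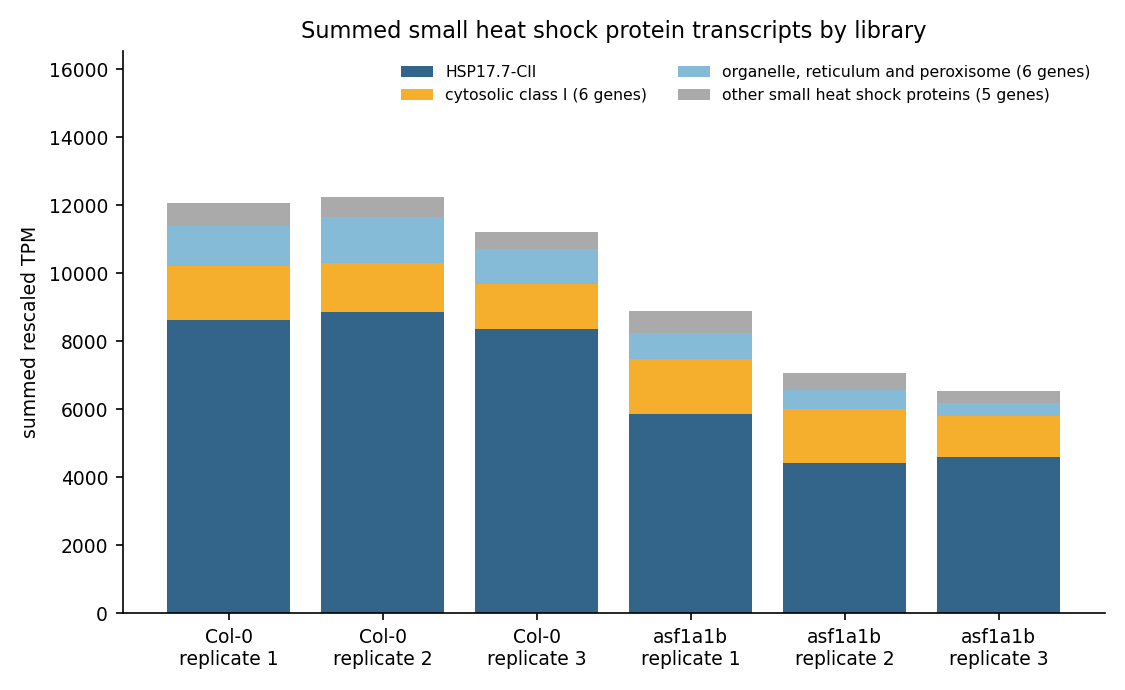
Summed rescaled TPM of the 18 small heat shock protein genes in each library, stacked as HSP17.7-CII, the 6 cytosolic class I genes, the 6 genes for proteins of organelles, reticulum and peroxisome, and the other 5 genes. HSP17.7-CII fills most of every bar, the class I segment is of like height in all 6 libraries, and the organelle segment is shorter in asf1a1b.

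The sum was dominated by HSP17.7-CII (AT5G12030, chromosome 5, 3883957 to 3884838, minus strand, 1 exon), a cytosolic class II protein. Its level was 8609, 8865 and 8344 rescaled TPM for Col-0 and 5853, 4418 and 4584 in asf1a1b, without overlap, and gave 71.4% to 74.4% of the family sum in Col-0 and 62.5% to 70.1% in asf1a1b. By level it was the 19th gene of all in Col-0 and the 34th in asf1a1b. The log2 fold change was -0.81 with an SE of 0.24 (limma, adjusted p = 0.0388), 1.74 times lower. The call was kept only in the fit without asf1a1b replicate 1 and was lost without any of the other 5 libraries, at a largest adjusted p of 0.138, and without a filter on low values (0.196).

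HSP17.6-CII (AT5G12020), the other class II gene, lies 845 bases from HSP17.7-CII on the same strand, and the coding sequences are 86.3% identical. Its values were 122, 193 and 151 in Col-0 and 209, 209.6 and 121 in asf1a1b, which overlapped (log2 fold change 0.19, adjusted p = 0.609). The difference between the 2 genes was not tested. Without the class II gene HSP17.7-CII, the family sum was 3233 ± 317 in the wild type and 2544 ± 542 in the mutant (SD, n = 3), and these sums overlapped.

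**Figure D3:**
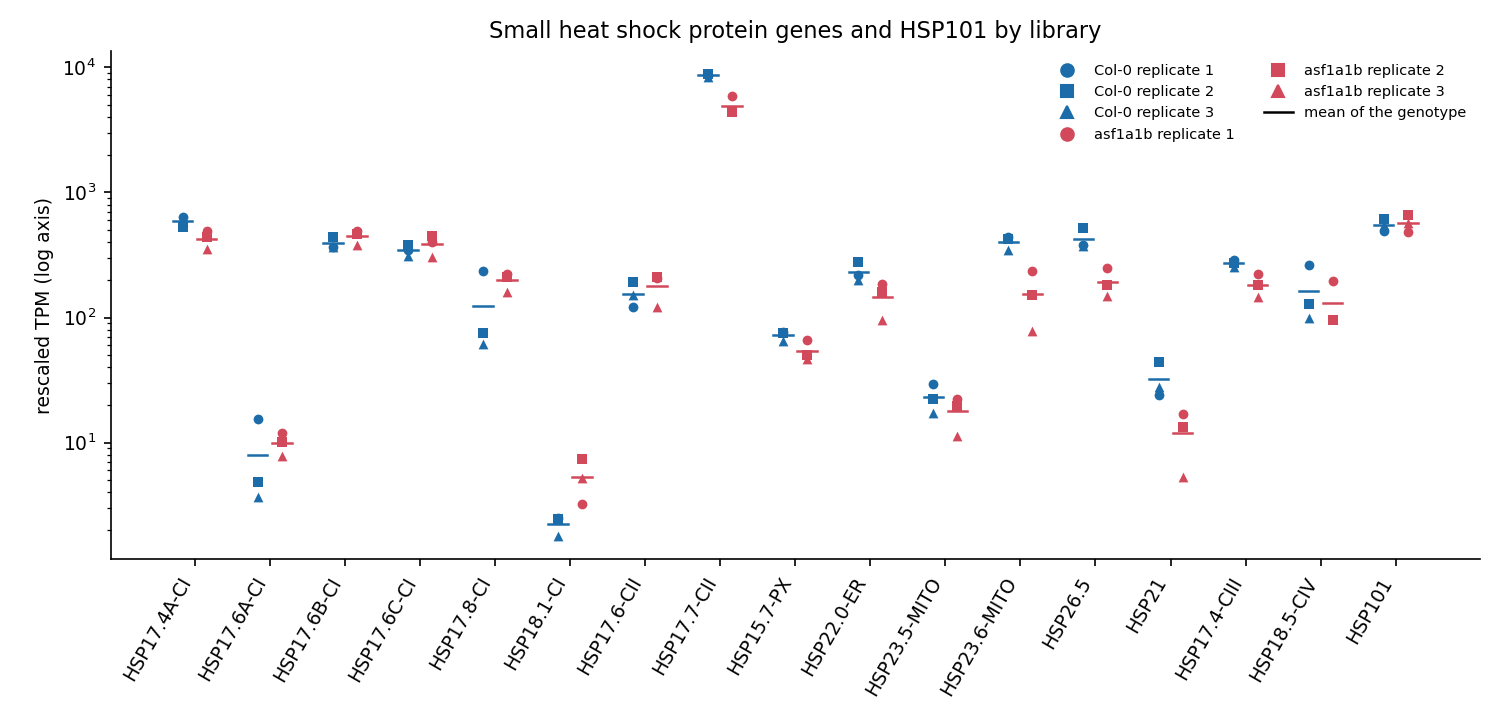
Rescaled TPM on a log axis of the 16 tested small heat shock protein genes and HSP101 in each library; points are libraries, with shapes for replicate numbers, and lines are the means of each genotype. HSP17.7-CII stands above all others at 4418 to 8865, and HSP23.6-MITO, HSP26.5, HSP21 and HSP17.4-CIII are lower in all 3 asf1a1b libraries.

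The 6 genes for small heat shock proteins of mitochondria, plastids, endoplasmic reticulum and peroxisomes all had a lower mean in asf1a1b, and 3 of them fell by the test. Of all genes tested, 14.5% fell. Their summed level was 1171, 1358 and 1031 in Col-0 and 773, 576 and 387 in asf1a1b, without overlap, 2.05 times lower on the mean. Their median log2 fold change was -0.92.

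HSP23.6-MITO (AT4G25200, chromosome 4, 12916926 to 12918110, plus strand, 2 exons), a mitochondrial chaperone, stood at 441, 425 and 348 rescaled TPM for Col-0 and 234, 151 and 78.4 for asf1a1b, a log2 fold change of -1.51 with an SE of 0.36 (limma, adjusted p = 0.0179). HSP26.5 (AT1G52560, chromosome 1, 19574538 to 19575866, minus strand, 2 exons), an organelle protein, had 379.9, 515 and 373 against 247, 182 and 149, a log2 fold change of -1.14 ± 0.22 (adjusted p = 0.0086). HSP21 (AT4G27670, chromosome 4, 13818825 to 13819971, minus strand, 2 exons), which protects the plastid's transcription and photosynthetic machinery, had 24.2, 44.5 and 27.7 against 16.9, 13.4 and 5.30, a log2 fold change of -1.44 ± 0.39 (adjusted p = 0.0298). In all 3 genes the mutant libraries lay below the wild-type ones, with replicate 1 the highest and replicate 3 the lowest of the mutant. The HSP26.5 call was kept with any library left out. That of HSP23.6-MITO was lost without replicate 2 of either genotype (largest adjusted p 0.0638), and that of HSP21 was lost when replicate 2 or 3 of either genotype was left out (0.09997) and without a filter on low values (0.0591). A stretch of 124 bases of HSP23.6-MITO has a 96.8% identical copy on chromosome 3 at 11757269 to 11757391, so some of its reads could have been assigned there.

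HSP22.0-ER (AT4G10250), the protein of the endoplasmic reticulum, had 221, 275 and 201 in Col-0 and 186, 159.7 and 95.7 in asf1a1b, without overlap, and did not pass (log2 fold change -0.70, adjusted p = 0.0707). The peroxisomal HSP15.7-PX (AT5G37670) had means of 72.0 and 54.4 (-0.41, adjusted p = 0.0777) and the second mitochondrial gene, HSP23.5-MITO (AT5G51440), of 23.03 and 17.84 (-0.37, adjusted p = 0.336), both with overlap. With the replicate block all 3 passed, at adjusted p of 0.0203, 0.0276 and 0.0428. HSP22.0-ER and HSP15.7-PX also passed with median-of-ratios scaling (0.04997 and 0.0445) and without asf1a1b replicate 1 (0.0330 and 0.0188).

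For the 6 cytosolic class I genes, the largest class, the summed level was 1457 ± 134 in the wild type and 1472 ± 232 in the mutant (SD, n = 3), with overlap. By the test, 1 gene rose, where 16.1% of all genes tested rose, and 5 did not pass. The median log2 fold change was 0.34. The difference between this class and the organelle proteins was not tested.

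The class I gene that rose was HSP18.1-CI (AT5G59720, chromosome 5, 24062323 to 24063300, plus strand, 1 exon), the least abundant of the class. Its level was 2.48, 2.46 and 1.79 rescaled TPM for Col-0, from 62 to 82 recovered reads, and 3.21, 7.37 and 5.22 in asf1a1b, from 93 to 303 reads. The genotypes did not overlap, and the log2 fold change was 0.90 with an SE of 0.25 (limma, adjusted p = 0.0308). The call was lost when replicate 2 or 3 of either genotype was left out, at a largest adjusted p of 0.106, and without a filter on low values (0.0625).

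HSP17.4A-CI (AT3G46230, chromosome 3, 16984118 to 16984867, minus strand, 1 exon), the most abundant class I gene, had 639.5, 526 and 596 in Col-0 and 488, 443 and 352 in asf1a1b. The ranges did not overlap, but the gene did not pass (log2 fold change -0.46, adjusted p = 0.0699, and 0.0428 with the replicate block, 0.0444 with median-of-ratios scaling and 0.0436 without asf1a1b replicate 1). HSP17.6B-CI (AT2G29500, chromosome 2, 12633065 to 12634120, minus strand, 1 exon) had 366, 444 and 363 in Col-0 and 495, 465 and 377 in asf1a1b (0.19, adjusted p = 0.403). HSP17.6C-CI (AT1G53540, chromosome 1, 19980299 to 19981199, plus strand, 1 exon) had 344, 383 and 308 in Col-0 and 405, 449 and 303 in asf1a1b (0.15, adjusted p = 0.565). In both of these the genotypes overlapped.

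Among class I genes, HSP17.8-CI (AT1G07400) and HSP17.6A-CI (AT1G59860), which share 88.1% of their coding sequence, were high in Col-0 replicate 1. HSP17.8-CI had 233, 75.7 and 62.0 in Col-0 and 225, 209 and 159.7 in asf1a1b, and HSP17.6A-CI had 15.5, 4.86 and 3.695 and then 11.9, 10.2 and 7.83. Neither passed (log2 fold changes of 0.92 and 0.49, adjusted p of 0.158 and 0.414). Without Col-0 replicate 1 both were higher in asf1a1b, at 1.502 (adjusted p = 0.0024) and 1.047 (adjusted p = 0.0080), and HSP17.8-CI also passed with the replicate block (0.0491). HSP18.5-CIV (AT2G19310), a cytosolic protein of another class, had the same high library, with 262, 127 and 99.96 in Col-0 and 196, 96.5 and 96.9 in asf1a1b, and did not pass (-0.29, adjusted p = 0.617).

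HSP17.4-CIII (AT1G54050, chromosome 1, 20179357 to 20180566, minus strand, 3 exons), the class III protein, fell: its level was 287, 273 and 252 rescaled TPM for Col-0 and 221.5, 181 and 147 in asf1a1b. There was no overlap, and the log2 fold change was -0.58 with an SE of 0.17 (limma, adjusted p = 0.0357). As for HSP17.7-CII, the call was kept only without asf1a1b replicate 1 and was lost without any of the other 5 libraries (largest adjusted p 0.126), and also without a filter on low values (0.0536). The last 2 genes of the family were below the minimum. HSP14.7 (AT5G47600) gave 0, 1 and 1 reads for Col-0 and 1, 38 and 21 for asf1a1b, which did not overlap in rescaled TPM, and HSP15.4 (AT4G21870) had 2 and 5 reads in all.

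**Figure D4:**
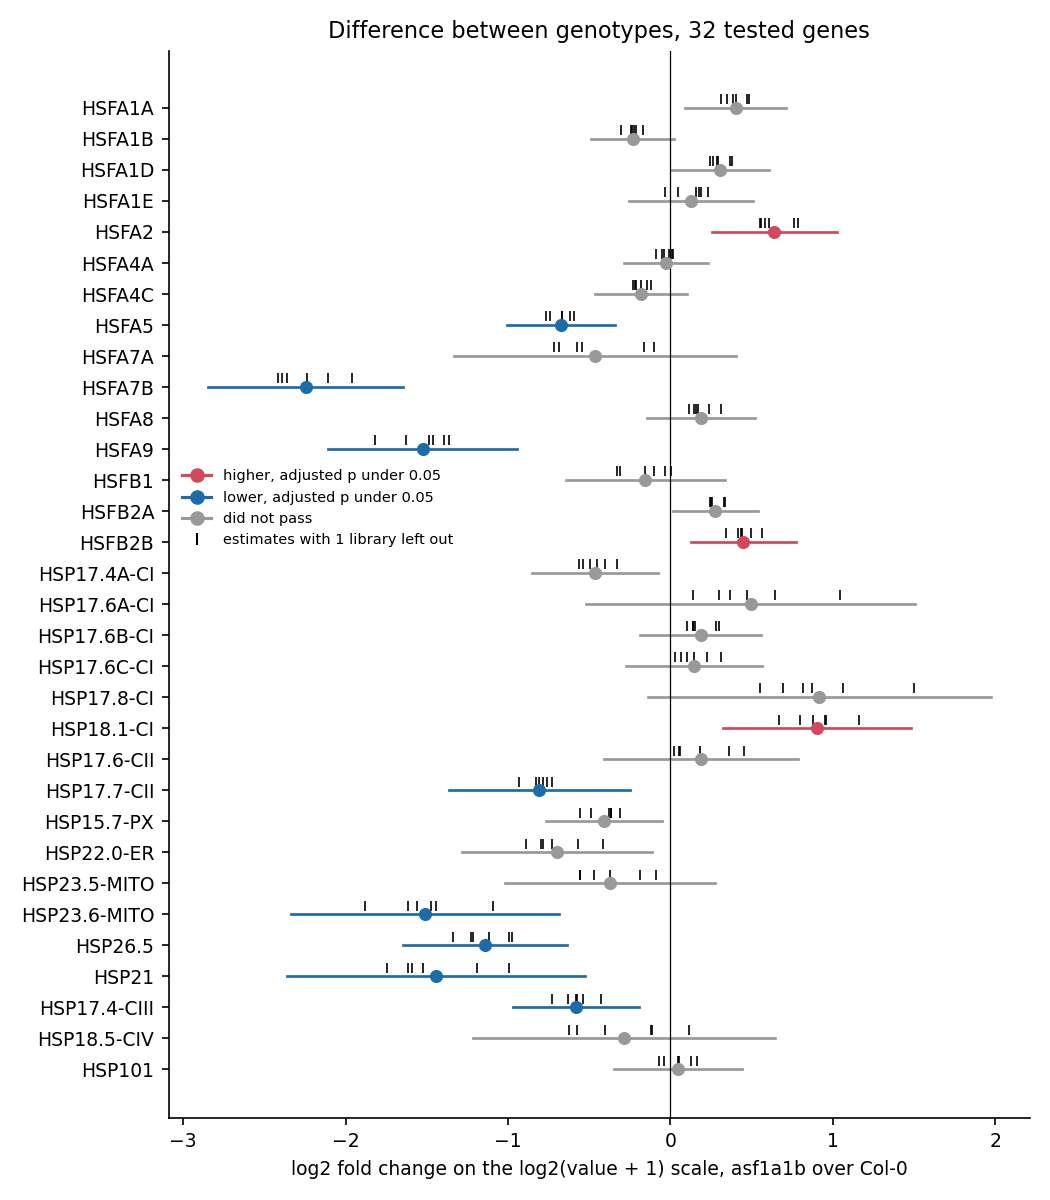
Log2 fold change (asf1a1b over Col-0, on the log2(value + 1) scale) of the 32 tested genes, with the 95% confidence interval from limma as a line; short vertical marks are the estimates with 1 library left out, and colours show the call. HSFA7B and HSFA9 lie farthest to the left of the heat shock factors at -2.25 and -1.53, and HSP101 lies at 0.05 with an interval from -0.35 to 0.44.

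HSP101 (AT1G74310, chromosome 1, 27936508 to 27940369, minus strand, 6 exons), the disaggregase that works with the small heat shock proteins, was the second most abundant of the 40 genes by its mean over the 6 libraries. Its level was 488, 612 and 554 rescaled TPM for Col-0 and 484, 665 and 567 in asf1a1b, and the genotypes overlapped almost wholly. The log2 fold change was 0.05, with a 95% interval from -0.35 to 0.44 (limma adjusted p = 0.855), and its sign turned with the scaling (-0.023 by median of ratios). HSP101 shares 101 bases with AT1G74300 on the other strand, which averaged 3.35 in the wild type and 14.0 in the mutant. A stretch of 182 bases of HSP101 has a 93.4% identical copy on chromosome 4 at 592062 to 592243, so some of its reads could have been assigned there.

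Many of the small heat shock protein genes shared their highest or lowest library. Of the 16 tested, 13 were highest in replicate 1 and 13 lowest in replicate 3 of the asf1a1b libraries, and in Col-0 13 were lowest in replicate 3 and 9 highest in replicate 1. Over all 32 tested genes, 17 had their highest library under the same replicate number in both genotypes. The shares over all genes are not given here, so these counts are not a result about the families. Across all genes tested, deviations from the group means correlated at 0.427, 0.144 and 0.327 for same-numbered libraries. The families also differ in gene structure, with 11 of 18 small heat shock protein genes in 1 exon and every heat shock factor gene in 2 or more.

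The other chaperones and co-chaperones of the pathway were 43 listed genes. Of the 40 tested, 9 rose, 1 fell and 30 did not pass, 17 had a lower mean in asf1a1b, and the median log2 fold change was 0.16. In all, 10 of the 40 passed, against 30.6% of all genes tested. With the replicate block 21 passed, while leaving out Col-0 replicate 2 gave 6, leaving out asf1a1b replicate 1 gave 17 and leaving out asf1a1b replicate 3 gave 3.

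HSP70 proteins are the ATP-driven chaperones that refold what small heat shock proteins hold. Of 16 HSP70 genes tested, 6 rose, where 16.1% of all genes tested rose, and 10 did not pass. HSC70-3 (AT3G09440), a cytosolic member, stood at 18.4, 13.9 and 17.599 rescaled TPM for Col-0 and 62.8, 161 and 184 in asf1a1b, a mean 8.18 times higher (log2 fold change 2.83 ± 0.37, limma adjusted p = 0.0026). BIP2 (AT5G42020), of the endoplasmic reticulum, had 4.15, 6.82 and 9.93 against 19.7, 94.2 and 68.5 (2.76 ± 0.55, adjusted p = 0.0098). HSC70-2 (AT5G02490) had 0.773, 0.906 and 1.33 against 3.45, 11.6 and 7.48 (1.97 ± 0.35, adjusted p = 0.0069). In each, asf1a1b replicate 1 was the lowest mutant library and still above the wild type. The BIP2 call was lost without asf1a1b replicate 3 (0.0507). The rises of the HSP70 genes not named here were lost without that library as well. Their largest adjusted p with 1 library left out ran from 0.0621 to 0.0708. Only the calls of HSC70-3 and HSC70-2 were kept with any library left out. HSP70 genes have close copies among themselves, and how reads were split between them is not known.

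**Figure D5:**
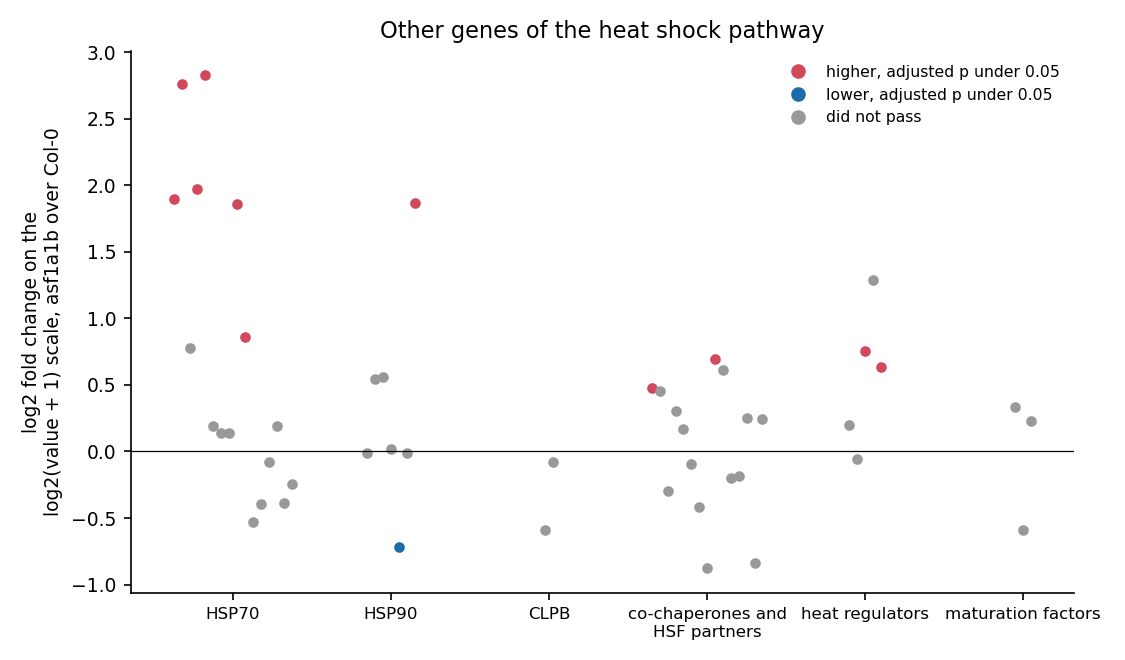
Log2 fold change (asf1a1b over Col-0, on the log2(value + 1) scale) of each tested gene in 6 lists of the heat shock pathway outside the 40 genes; each point is a gene, and colours show the call. Most coloured points lie above 0, 6 of them in the HSP70 list, and HSP90.5 is the coloured point below 0.

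HSP90 proteins hold client proteins, among them heat shock factors. Of 7 tested, HSP90.7 (AT4G24190), of the endoplasmic reticulum, rose from a mean of 2.77 to 15.6 (log2 fold change 1.87, limma adjusted p = 0.0439), and the plastid HSP90.5 (AT2G04030) fell from 107.5 to 64.5 (-0.72, adjusted p = 0.0100). The share passing was 28.6%, near the 30.6% of all genes tested. The HSP90.7 call was kept only without asf1a1b replicate 1 and was lost without any of the other 5 libraries, at a largest adjusted p of 0.150, and that of HSP90.5 without asf1a1b replicate 3 (0.0534). The plastid CLPB3 and the mitochondrial CLPB4, the relatives of HSP101 that were tested, did not pass (-0.59 and -0.08, adjusted p of 0.0518 and 0.697).

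HSBP (AT4G15802), which binds heat shock factors and damps them, rose from 7.28, 7.46 and 7.84 rescaled TPM in Col-0 to 13.3, 12.1 and 12.9 in asf1a1b (log2 fold change 0.69 ± 0.11, limma adjusted p = 0.0044). It was 1 of 2 among 15 co-chaperones and partners of heat shock factors to rise, with the J protein gene ATJ2 (AT5G22060), which went from a mean of 90.38 to 127 (0.48, adjusted p = 0.0389). That is 13.3% of this list, where 16.1% of all genes tested rose, so the count is not a result about the list. The HSBP call was kept with any library left out, and the ATJ2 call was lost when replicate 2 or 3 of either genotype was left out, at a largest adjusted p of 0.145.

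Of 5 regulators that act with or on heat shock factors, DREB2A (AT5G05410) and NF-YC10 (AT1G07980) rose, and DREB2C, BZIP28 and BZIP60 did not pass. Of all genes tested, 16.1% rose. DREB2A, which drives HSFA3, had 623, 447 and 469 in Col-0 and 656, 1098 and 871 in asf1a1b (0.75 ± 0.23, limma adjusted p = 0.0412). NF-YC10, a partner of DREB2A under heat, had 43.9, 37.8 and 38.3 and then 60.02, 62.4 and 64.8 (0.63 ± 0.11, adjusted p = 0.0062). The DREB2A call was lost when replicate 2 or 3 of either genotype was left out (largest adjusted p 0.142), and the NF-YC10 call was kept with any library left out.

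The listed seed maturation factors, among them ABI3 upstream of HSFA9, did not pass. ABI3 (AT3G24650) stood at 63.2, 62.0 and 55.5 rescaled TPM for Col-0 and 79.5, 71.1 and 77.8 in asf1a1b, higher in every mutant library (log2 fold change 0.33, limma adjusted p = 0.0524). FUS3 (AT3G26790) had means of 10.6 and 12.6 (adjusted p = 0.354) and ABI5 (AT2G36270) of 541 and 375 (-0.59, adjusted p = 0.108), and LEC1 and LEC2 were below the minimum. GOLS1, a target of heat shock factors, had means of 799 and 644 (adjusted p = 0.411).

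The authors' deposited table of 15257 genes lists 34 of the 40 genes and marks 3 of them, while 8.76% of its genes are marked. It marks HSFA3 up, with a log2 fold change of 1.98, and HSFA7B and HSFA9 down, at -2.48 and -1.501. The marked genes of that table have an absolute log2 fold change of 1.5 or more. Of the 34, 16 have an adjusted p under 0.05 in the authors' deposited table, against 38.5% of its genes, and all 11 genes called by limma are among them.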

How the data were processed

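RNA-seq of fresh seeds was compared between Col-0 and asf1a1b, with 3 libraries each, grouped by the sample titles. Reads were processed by the authors with fastp 0.23.4 and HISAT2 2.2.1 on TAIR10, per the submitters' processing notes. Their counter, annotation, strand setting, rescaling and test were not given in the sources used here. Deposited by the authors is a signal per gene and library that its name calls TPM, but library totals run from 915126 to 1049698, so the values were rescaled between libraries. A second deposited table holds the authors' log2 fold changes, p-values, adjusted p-values and marks. No column of another sample was present (0 columns).

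Value times merged exon length (RefSeq TAIR10.1, 32548 genes matched) gave whole multiples of a step per library for 99.3% to 99.42% of checked values (within 0.1 of a whole number, under 200 reads), so reads were recovered and depth was taken from them. The main test was limma 3.58.1 in R 4.3.3 on log2(value + 1) over genes with a mean of at least 1 (lmFit, eBayes with a mean-variance trend, two-sided, Benjamini-Hochberg, threshold 0.05), fitted on all 14663 genes. Log2 fold changes are on that scale and understate the change of low genes, while "times" are ratios of mean deposited values. The alternative on recovered reads was limma-voom, where 4575 genes passed. The code was tested on simulated data. Floors and intervals on reads cover counting error only.

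Values in every library are given for the genes that passed, HSFA9, HSP101 and the 5 genes with the highest means, and up to 3 genes that passed are named from each pathway or marker list. HSFA3, HSFA7A, HSP14.7, HSP17.6-CII, HSP17.6A-CI, HSP17.8-CI, HSP18.5-CIV, HSP22.0-ER, HSFA1A and ABI3 were shown by library after their values were seen. The 40 genes and all lists were chosen with earlier results of these data known. Promoter windows and coding identities were computed from the TAIR10.1 genome (Python 3.11.15, Biopython 1.88), and near copies were sought with BLAST 2.17.0 (at least 90% identity over 75 bases). Without a known strand setting, reads shared with a gene on the other strand cannot be told apart. 7 of the 40 genes overlap such a gene.

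The replicate numbers come from the titles. Deviations from the group means correlated across the tested genes at 0.427, 0.144 and 0.327 for same-numbered libraries. The value for asf1a1b replicate 2 against Col-0 replicate 3 was larger than with its own number (0.381). The labels state no batch, so these values do not settle whether the numbers pair the libraries. The main test therefore used no pairing, and the replicate block was run as an alternative.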

Additional observations from a re-analysis of the deposited data

How the results depend on the processing

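Alternatives covered the pseudocount, the filter on low values, the scaling, the variance prior, limma-voom on recovered reads, a replicate block and leaving out each library. All 11 genes of the 40 that passed also passed with both other pseudocounts, limma-voom and the replicate block, and HSFA9, HSFA7B and HSP26.5 passed in every alternative run. With the replicate block the numbers passing were 17 of the 40 genes (5 higher), 11 small heat shock proteins, 21 other chaperones and 5825 of all genes, and it removed no call. Without a filter 7 passed (5 lower), 2 of them small heat shock proteins. A minimum mean of 5 left 2544 of all genes passing, against 4494. Leaving out 1 library gave 1767 to 4999 passing genes in all, 3 to 15 of the 40 (0 to 5 higher, 3 to 11 lower), 2 to 6 heat shock factors, 1 to 9 small heat shock proteins and 3 to 17 other chaperones. Where none of the 40 rose by limma, 4 were higher at an unadjusted p under 0.05 when Col-0 replicate 2 or 3 was left out, and 3 when it was asf1a1b replicate 2 or 3. An alternative chosen after seeing the data left out both replicates numbered 1, which leaves 2 libraries per genotype. Then 7588 genes passed, 20 of the 40 (8 higher, 12 lower), 9 heat shock factors, 11 small heat shock proteins and 24 other chaperones. The cause of these shifts was not tested. Small log2 fold changes of genes that did not pass changed sign. With 1 library left out they ran from -0.034 to 0.23 for HSFA1E, from -0.088 to 0.017 for HSFA4A, from -0.33 to 0.0017 for HSFB1, from -0.62 to 0.12 for HSP18.5-CIV and from -0.068 to 0.16 for HSP101. HSP101 was at -0.023 with median-of-ratios scaling, and without both replicates numbered 1 HSFA7A was at 0.20 and HSP17.6-CII at -0.11. With 3 libraries per genotype, a p above the threshold does not show that a gene did not differ. For the rarely read factors, depth limits what can be seen.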
